A study of Homo sapiens with 15 samples.

Results

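Cyclin-dependent kinase (CDK) inhibitors and targets of the transcription factor p53 were followed through a co-culture of lung fibroblasts and small cell lung cancer (SCLC) cells. The 10 genes were chosen by symbol: the CIP/KIP inhibitors CDKN1A, CDKN1B and CDKN1C, the INK4 inhibitors CDKN2A, CDKN2B and CDKN2C, and the p53 targets MDM2, TP53INP1, BTG2 and GADD45A. Earlier results of these data were known at that choice, so that their counts beside those of all genes only describe. All 10 were listed in both deposited tables, which together list 17138 genes, and all 10 passed the filter on low counts in every model.

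MRC5 is a human lung fibroblast line of fetal origin, H196 a non-neuroendocrine (non-NE) SCLC line and H69 a neuroendocrine (NE) SCLC line, which was used here only as a partner. MRC5 cells were grown alone (MRC5_Mo), with H69 (MRC5_coH69) or with H196 (MRC5_coH196), and H196 cells were grown alone (H196_Mo) or with MRC5 (H196_Co). Cultures lasted a week, and a porous transwell insert kept the partners apart, so that each library is meant to hold the RNA of one line. RNA was sequenced from 3 libraries per group, 15 in all. Each partner was a single cell line, and no source used here says whether the libraries of a group came from separate cultures, so that p-values measure only the spread between these libraries.

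CDK inhibitors hold back the cell cycle. INK4 proteins bind CDK4 and CDK6 and keep cyclin D from activating them, while CIP/KIP proteins bind complexes of cyclins and CDKs more broadly, above all those of CDK2. Both families act before S phase on the pathway in which cyclin D and cyclin E kinases phosphorylate RB and release E2F factors. CDKN1A is the best known target of p53, a factor that stress stabilises by freeing it from MDM2, the ubiquitin ligase that p53 itself induces in a feedback loop. CDKN2A gives 2 proteins from overlapping reading frames, the INK4 inhibitor p16 and ARF, which holds MDM2 back. BTG2 and TP53INP1 are antiproliferative and stress genes under p53, and GADD45A is induced by DNA damage and other stresses both through p53 and without it.

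Totals ranged from 16073584 to 19170550 counts per library, and the TMM scaling factors ran from 0.916 to 1.05 in the fits within a line and from 0.814 to 1.26 in the fit of both lines. Values of the lines are set side by side in FPKM although each table was normalized by itself. Fibroblast markers separated the lines as labelled. All 12 fibroblast markers were listed in MRC5 cells, with a summed level of 5462 to 8804 FPKM (fragments scaled by gene length and library total) over the MRC5 libraries, against 20.02 to 30.42 FPKM over the H196 libraries. The NE markers NEUROD1, INSM1, CHGA and GRP were at 0 or not listed in each MRC5 group, and INSM1 and GRP also in each H196 group. The other marker lists separated the lines in part. Of 4 NE markers tested, 3 were higher in H196_Mo than in MRC5_Mo and none lower (edgeR adjusted p under 0.05 and absolute log2 fold change above 0.58). With no fold limit, 1 of the 4 passed as lower in H196_Mo, where 86.6% of all genes passed in either direction. CHGB was at 19.0 FPKM in H196_Mo and 0.107 in MRC5_Mo, SYP at 8.71 and 0.1, and DLL3 at 4.04 and 0.357. UCHL1, a neuronal hydrolase on the NE list, was at 561 ± 8.75 FPKM in MRC5_Mo and 591 ± 24.05 FPKM in H196_Mo (SD, n = 3). By the adjusted p and the fold limit, of 6 epithelial markers tested 4 were lower and 1 was higher in H196_Mo. The summed level of the 10 epithelial markers listed went the other way. It was 180.0 to 189.7 FPKM in H196_Mo and 109.3 to 116.9 FPKM in MRC5_Mo.

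The genes lie on 6 chromosomes of GRCh38.p13, the build of the deposited tables. CDKN1A spans chr6:36676463-36687332, CDKN1B chr12:12717368-12722369, CDKN2C chr1:50968706-50983151, BTG2 chr1:203305519-203312369 and GADD45A chr1:67685201-67688334, all on the plus strand. MDM2 lies at chr12:68808149-68850686 on the plus strand, and its expected count was a whole number in 3 of 15 libraries, as happens where a tool divides reads between genes that share sequence. The tables give CDKN2A the interval chr9:21932644-22218707, which contains that of CDKN2B at chr9:21995472-22012763, and 16 transcripts. The counts of both genes were whole numbers in 15 of 15 libraries, and counts per gene do not separate p16 from ARF. The tables list both genes on the plus strand, whereas RefSeq places their promoters on the minus strand. CDKN1C is placed on an alternate contig, with the band 11p15.4.

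RefSeq promoter sequence (GRCh38.p14) was at hand for 7 of the 10 genes. The promoters of 3 are shown: CDKN2B, a gene lower in co-culture in both lines, CDKN1A, the most abundant of the CIP/KIP genes, and BTG2. The latter pair were chosen after their values were seen. Each run starts 250 bases before an annotated start. It stops before the first base of that window that GENCODE 29 places in an exon of the gene. The CDKN1A and CDKN2B runs lie inside the gene intervals given above, so that they are not upstream of the whole gene. CDKN1A is at chr6:36678464-36678657 on the plus strand, CDKN2B at chr9:22009364-22009555 on the minus strand and BTG2 at chr1:203305269-203305490 on the plus strand. Capitals mark GGGCGG, the core of the box bound by SP1, or CCGCCC, its reverse complement.
CDKN1A: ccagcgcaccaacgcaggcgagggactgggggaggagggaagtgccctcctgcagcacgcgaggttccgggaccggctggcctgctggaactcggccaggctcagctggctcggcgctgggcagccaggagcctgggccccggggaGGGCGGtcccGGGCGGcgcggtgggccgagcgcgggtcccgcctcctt
CDKN2B: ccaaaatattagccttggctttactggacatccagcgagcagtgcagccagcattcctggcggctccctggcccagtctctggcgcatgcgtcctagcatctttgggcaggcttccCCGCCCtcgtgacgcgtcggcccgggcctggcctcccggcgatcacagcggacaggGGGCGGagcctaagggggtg
BTG2: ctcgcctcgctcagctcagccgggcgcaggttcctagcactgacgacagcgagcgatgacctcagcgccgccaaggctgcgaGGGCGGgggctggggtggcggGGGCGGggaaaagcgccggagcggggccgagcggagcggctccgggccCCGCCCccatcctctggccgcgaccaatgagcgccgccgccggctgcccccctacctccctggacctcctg

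The GGGCGG box occurs 2 times in the CDKN1A run, 2 times in the CDKN2B run and 3 times in the BTG2 run. Over the full 250 bases, on either strand, it occurs in 42.6% of the 35116 RefSeq windows. GCGTG, a core of the hypoxia response element, occurs once in the CDKN1A run and in 32.2% of all windows. The other core, ACGTG, is not in these 3 runs and occurs in 18.5% of windows. No window of the 7 genes holds an exact match to the p53 half-site, searched over 250 bases and found in 5.57% of windows. Sites with mismatches, or outside these windows, were not searched for. The lack of a match therefore does not tell whether p53 has sites at these genes. These matches describe the letters of the windows only.

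In fibroblasts grown alone, CDKN1A was by far the most abundant CDK inhibitor. Its level was 598 ± 9.35 FPKM (SD, n = 3) in MRC5_Mo, or 97.3% of the summed FPKM of the 3 CIP/KIP genes. CDKN1B, which encodes p27, stood at 13.4 ± 0.700 FPKM, and CDKN1C, which encodes p57, at 3.05 ± 0.804 FPKM. Of the INK4 genes, CDKN2A was at 27.9 ± 0.745 FPKM, CDKN2C, which encodes p18, at 12.8 ± 1.34 FPKM and CDKN2B, which encodes p15, at 2.61 ± 0.127 FPKM. GADD45A was the most abundant of the other p53 targets at 82.8 ± 0.690 FPKM, above MDM2 at 16.05 ± 1.005, BTG2 at 8.67 ± 0.389 and TP53INP1 at 6.96 ± 0.666 FPKM.

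**Figure D1:**
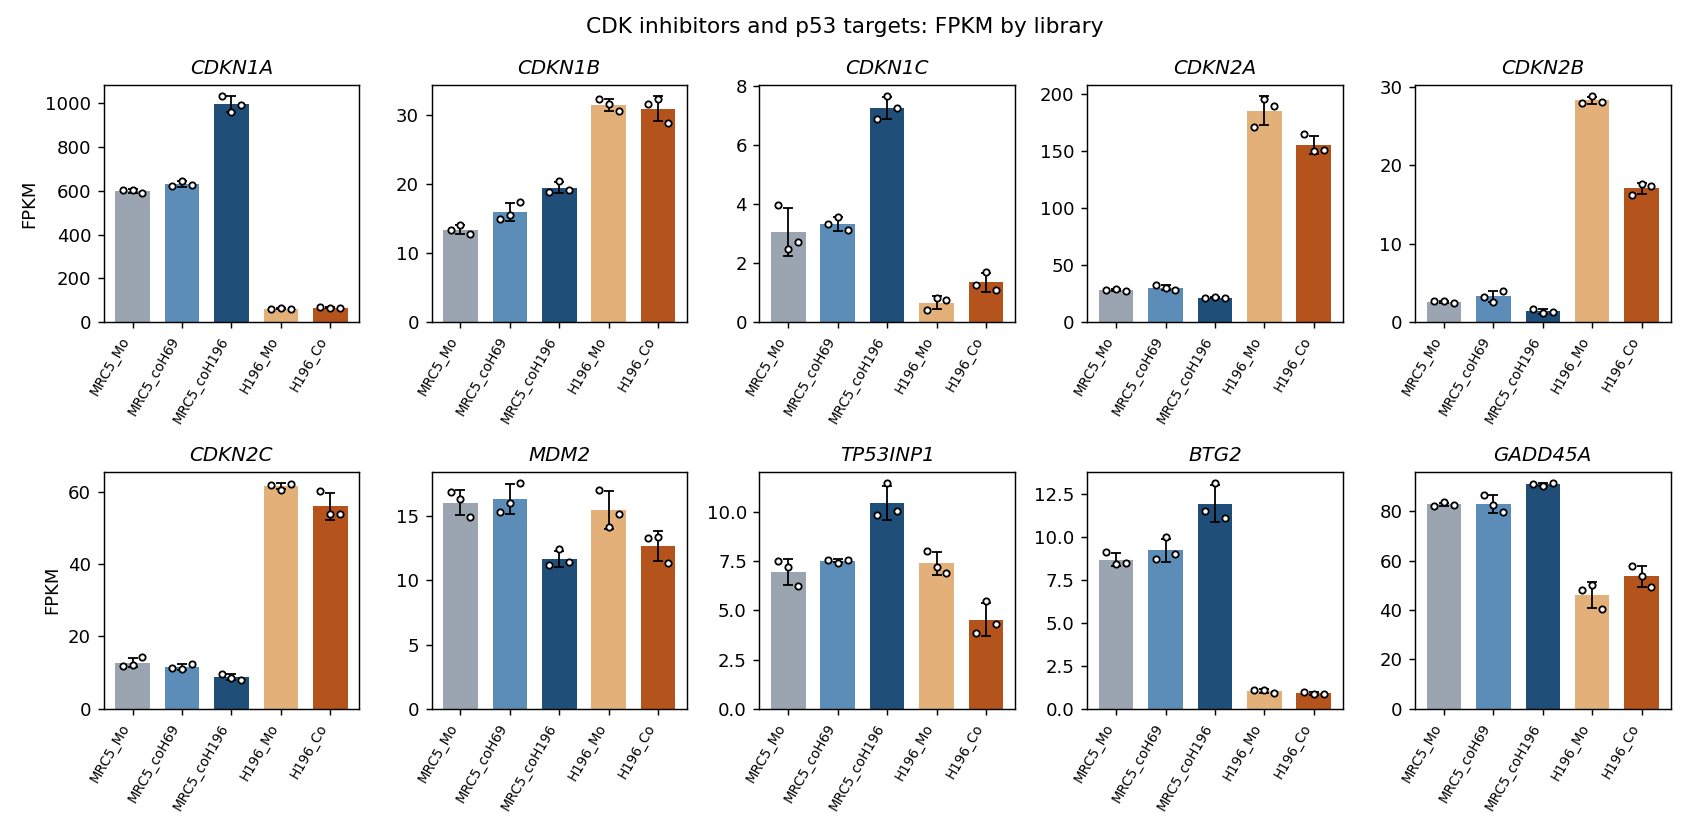
FPKM (linear axes from 0, one scale per gene) of the 10 genes in each library of the 5 groups; bars are group means, whiskers SD and points the 3 libraries of a group. CDKN1A, CDKN1C and BTG2 are highest in MRC5_coH196, and CDKN2A, CDKN2B and CDKN2C are highest in the H196 groups.

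H196 cells grown alone had the opposite make-up. All 3 INK4 genes were higher in H196_Mo than in MRC5_Mo, and CDKN1A, CDKN1C and BTG2 were far lower. CDKN2A was at 170.53, 195.00 and 189.12 FPKM in the H196_Mo libraries, against 27.85, 28.61 and 27.12 FPKM in the MRC5_Mo libraries. CDKN1A was at 59.59, 64.61 and 60.05 FPKM in H196_Mo, against 601.65, 605.62 and 587.81 FPKM in MRC5_Mo. Neither gene overlapped between the lines, and the scaled counts of 87.6% of all genes did not. CDKN1A held 65.7% of the CIP/KIP sum in H196_Mo, with CDKN1B at 33.7%.

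The sums over the 3 genes of each family among the 10 moved the same way. Summed CIP/KIP FPKM was 615 ± 10.2 in MRC5_Mo and 93.5 ± 3.01 in H196_Mo, while the INK4 sum was 43.3 ± 0.741 in MRC5_Mo and 275 ± 12.6 in H196_Mo (SD, n = 3). CDKN2A held a like part of this INK4 sum in both lines, 64.4% and 67.3%. CDKN2D, an INK4 gene outside the 10, is not in the sum. It was at 8.46 FPKM in MRC5_Mo and 36.9 FPKM in H196_Mo.

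The difference between the lines was tested on the counts of genes listed in both tables, scaled together, since the tables were normalized separately. A DEG (differentially expressed gene) has an adjusted p under 0.05 by edgeR's quasi-likelihood test and an absolute log2 fold change above 0.58. Between H196_Mo and MRC5_Mo, 8 of the 10 genes were DEGs, 4 higher and 4 lower, beside 61.7% of all genes tested (31.5% higher and 30.2% lower). With no fold limit all 10 passed, beside 86.6%. CDKN2B was higher in H196_Mo by a log2 fold change of 3.0 (SE 0.0975, edgeR adjusted p = 1.72e-21), CDKN2A by 2.40 (SE 0.0717) and CDKN2C by 1.73 (SE 0.0784). CDKN1B was higher by 0.79 (SE 0.0646). CDKN1A was lower, at -3.72 (SE 0.0618, edgeR adjusted p = 1.61e-28), as were BTG2 at -3.52 (SE 0.114), CDKN1C at -2.61 (SE 0.225) and GADD45A at -1.29 (SE 0.0677). MDM2 at -0.53 and TP53INP1 at -0.36 were also lower but under the fold limit. In FPKM both genes overlapped between the lines. MDM2 was at 15.46 FPKM in H196_Mo and 16.05 in MRC5_Mo, and TP53INP1 at 7.38 and 6.96. The lower level of TP53INP1 in H196_Mo thus holds on the jointly scaled counts and not in FPKM.

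Co-culture with H196 raised all 3 CIP/KIP genes of the fibroblasts and lowered the 3 INK4 genes among the 10. Of the 10 genes, 7 were DEGs in MRC5_coH196 against MRC5_Mo, beside 31.9% of all genes tested. They were 5 upregulated and 2 downregulated, beside 17.2% and 14.7%. With no fold limit, all 10 passed the adjusted p, 6 upward and 4 downward, beside 74.3% of all genes (37.2% upward and 37.1% downward), and the CPM (counts scaled to the TMM library size) of the groups did not overlap for any of the 10, beside 75.5%. This comparison therefore moved most of the transcriptome, so that passing the adjusted p alone sets none of the 10 apart. The median log2 fold change of the 10 was 0.47, and that of all genes -0.003.

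CDKN1A, which encodes p21, had 1032.43, 962.09 and 993.93 FPKM in the MRC5_coH196 libraries and at most 605.62 FPKM in MRC5_Mo. Each co-cultured library stood above each mono-cultured one. The log2 fold change was 0.91 (SE 0.0420, edgeR adjusted p = 7.66e-16), a 1.88-fold rise that exceeded the change of 91.1% of genes tested.

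CDKN1B had 18.89, 20.38 and 19.07 FPKM in MRC5_coH196, against 13.40, 14.09 and 12.69 FPKM in MRC5_Mo, and its log2 fold change was 0.71 (SE 0.0609, edgeR adjusted p = 1.26e-10). CDKN1C had 6.90, 7.66 and 7.25 FPKM, against 3.97, 2.47 and 2.72 FPKM. Its change was the largest of the 10, a log2 fold change of 1.42 (SE 0.134, edgeR adjusted p = 7.22e-10). CDKN1C rested on 69 to 106 counts per MRC5_Mo library and CDKN1A on 20088 to 20933, so that CDKN1C carried the wider error. Because CDKN1A alone holds so much of the family, the summed CIP/KIP level went from 615 to 1023 FPKM while the part of CDKN1A was 97.4% in MRC5_coH196.

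CDKN2B had 1.67, 1.12 and 1.25 FPKM in MRC5_coH196, against 2.66, 2.71 and 2.47 FPKM in MRC5_Mo. No library of one group reached into the other, and the log2 fold change was -0.77 (SE 0.147, edgeR adjusted p = 4.53e-05), on 74 to 182 counts per library. CDKN2C had 9.74, 8.51 and 8.09 FPKM, against 11.95, 12.09 and 14.33 FPKM, and its log2 fold change was -0.71 (SE 0.0971, edgeR adjusted p = 4.51e-07).

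CDKN2A moved least among the inhibitors. It had 20.79, 22 and 21.28 FPKM in MRC5_coH196, against 27.85, 28.61 and 27.12 FPKM in MRC5_Mo, and its log2 fold change of -0.19 (SE 0.0712, edgeR adjusted p = 0.0180) was under the fold limit. That call was lost with DESeq2 (adjusted p = 0.0650), without MRC5_Mo replicate 2 (0.0601) and without MRC5_coH196 replicate 1 (0.0511). The INK4 genes and CDKN1B are the members that edgeR called higher in H196_Mo than in MRC5_Mo. In the fibroblasts that had been grown with H196, the 3 INK4 genes were lower and CDKN1B was higher (0.71). Whether these patterns are linked was not tested.

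The p53 targets did not move as one. TP53INP1 had 9.85, 11.46 and 10.02 FPKM in MRC5_coH196, against 7.49, 7.17 and 6.21 FPKM in MRC5_Mo, a log2 fold change of 0.76 (SE 0.0628, edgeR adjusted p = 6.73e-11). BTG2 had 11.53, 13.14 and 11.09 FPKM, against 9.12, 8.41 and 8.49 FPKM, a log2 fold change of 0.63 (SE 0.0707, edgeR adjusted p = 1.59e-08) that was 0.57, under the fold limit, without MRC5_coH196 replicate 2. Both rose above the fold limit, and neither gene overlapped between the groups.

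GADD45A rose by less, with 91.09, 90.29 and 91.33 FPKM in MRC5_coH196 against 82.26, 83.55 and 82.48 FPKM in MRC5_Mo and a log2 fold change of 0.31 (SE 0.0453, edgeR adjusted p = 1.30e-06). MDM2 fell. It had 11.21, 12.40 and 11.41 FPKM, against 16.88, 16.33 and 14.93 FPKM, and a log2 fold change of -0.28 (SE 0.0523, edgeR adjusted p = 3.33e-05). Both stayed under the fold limit.

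FPKM and the model differ in scale for this comparison. The median of all genes shifted by -0.13 on log2(FPKM + 1) and by -0.18 on log2(FPKM + 0.1), whereas it was -0.003 in the edgeR model with TMM. With limma on those scales, 915 genes were upregulated and 2082 downregulated DEGs with a pseudocount of 1, and 1437 and 2869 with a pseudocount of 0.1, against 2207 and 1885 in edgeR. Of the 10 genes, CDKN1A, CDKN1C and CDKN2B remained DEGs on both FPKM scales and TP53INP1 on that with the smaller pseudocount. All 10 kept their direction and their adjusted p under 0.05 there.

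**Figure D2:**
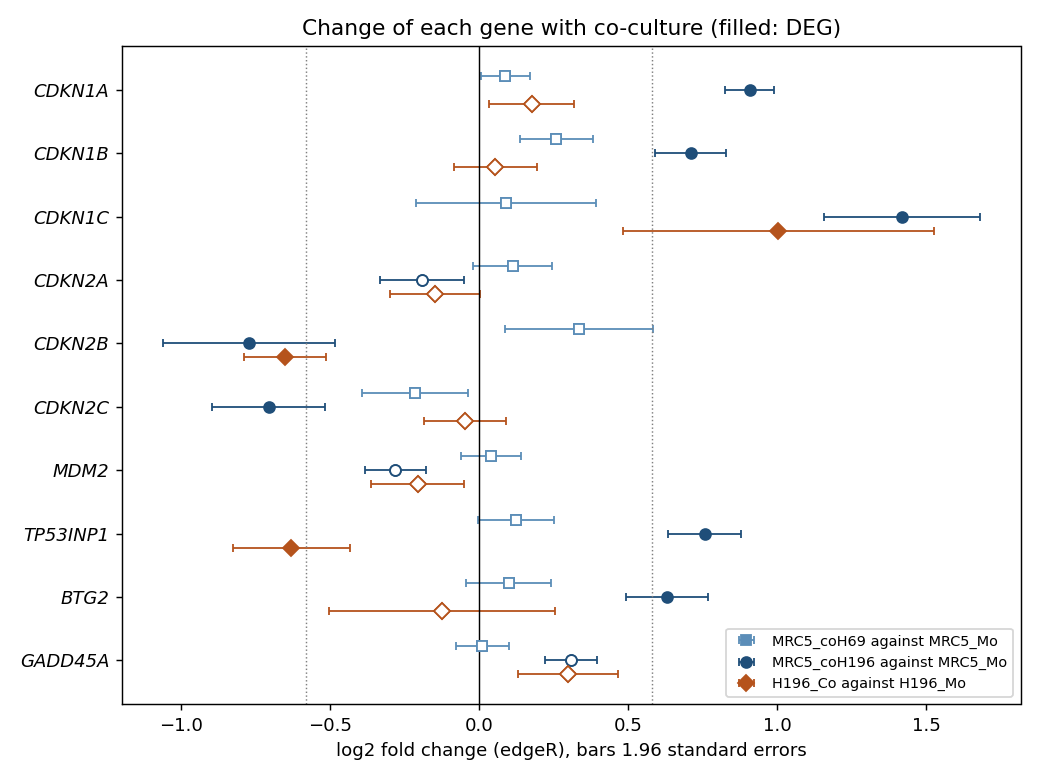
log2 fold change (edgeR, horizontal axis) of each gene in 3 comparisons with a mono-culture; bars are 95% intervals, dotted lines the fold limit of 0.58, and filled symbols DEGs. The MRC5_coH196 points of CDKN1A, CDKN1B, CDKN1C, TP53INP1 and BTG2 lie to the right of the limit, and TP53INP1 lies on opposite sides in MRC5_coH196 and H196_Co.

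H69 cells changed few of these genes in the fibroblasts. None of the 10 was a DEG in MRC5_coH69 against MRC5_Mo by edgeR or DESeq2, beside 0.554% of all genes by edgeR. An unadjusted edgeR p under 0.05 was found for 4 of the 10, with no share of all genes counted to set beside it. Only 1 passed the adjusted p, upward, beside 3.78% of all genes upward and 6.7% in either direction. It was CDKN1B, with 14.89, 15.53 and 17.34 FPKM against 13.40, 14.09 and 12.69 FPKM and a log2 fold change of 0.26 (SE 0.0625, edgeR adjusted p = 0.0113). That call was lost with limma on FPKM (0.0633 and 0.0646), without MRC5_Mo replicate 3 (0.0958) and without MRC5_coH69 replicate 3 (0.0932).

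CDKN1A had 622.47, 646.86 and 624.98 FPKM with H69, each above the MRC5_Mo libraries (groups did not overlap in CPM for 25.7% of all genes). Its log2 fold change of 0.09 (95% interval 0.0049 to 0.169) did not pass after adjustment (edgeR adjusted p = 0.245). CDKN2B had 3.25, 2.60 and 3.96 FPKM with H69, which overlapped MRC5_Mo, and a log2 fold change of 0.34 (SE 0.127, edgeR adjusted p = 0.120). It passed without MRC5_coH69 replicate 2 (0.47, adjusted p = 0.0300). CDKN2C had a log2 fold change of -0.22 (SE 0.0901, edgeR adjusted p = 0.165), and passed without MRC5_Mo replicate 1 (-0.31, adjusted p = 0.0325).

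Set directly against each other, the co-cultures differed in all 10 genes by adjusted p, beside 72.3% of all genes. DEGs in MRC5_coH196 against MRC5_coH69 were CDKN1C at 1.33 (SE 0.132), CDKN1A at 0.82 (SE 0.0420) and TP53INP1 at 0.63 (SE 0.0621), which were higher with H196, and CDKN2B at -1.11 (SE 0.142), which was lower. Those 4 stand beside 28.2% of all genes. None of the 10 overlapped between the co-cultures in CPM, beside 73.1%. With limma on FPKM, TP53INP1 was at 0.42 and 0.47, under the fold limit, and the other 3 remained DEGs. The remaining 6 differed by absolute log2 fold changes of 0.30 to 0.53. This comparison shares its libraries with the others, so that its values are not independent of them.

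H196 cells grown with fibroblasts changed fewer of the 10 genes. In H196_Co against H196_Mo, CDKN1C was an upregulated DEG and CDKN2B and TP53INP1 were downregulated DEGs, beside 3.26% and 0.601% of all genes. These 3 DEGs stand beside 3.86% in either direction. GADD45A also passed the adjusted p, so that 4 of 10 passed, beside 19.8% of all genes. CPM did not overlap for 6 of the 10, beside 37.2%.

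CDKN2B had 16.23, 17.62 and 17.34 FPKM in H196_Co, against 28, 28.82 and 28.09 FPKM in H196_Mo. The groups were far apart for the spread within them, and the log2 fold change was -0.65 (SE 0.0699, edgeR adjusted p = 1.27e-06), lower than that of all but 0.6% of genes tested. CDKN2B was thus lower in both partners after co-culture, from unequal levels: 28.3 ± 0.450 FPKM in H196_Mo and 2.61 ± 0.127 FPKM in MRC5_Mo.

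TP53INP1 had 3.85, 5.45 and 4.29 FPKM in H196_Co, against 8.01, 7.22 and 6.91 FPKM in H196_Mo. Every co-cultured library was below every mono-cultured one, with a log2 fold change of -0.63 (SE 0.1002, edgeR adjusted p = 0.000165). Without H196_Co replicate 1 it was -0.53 (adjusted p = 0.00217), under the fold limit. In MRC5 cells the same gene rose.

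CDKN1C had 1.26, 1.70 and 1.08 FPKM in H196_Co, against 0.41, 0.81 and 0.76 FPKM in H196_Mo, on 10 to 37 counts per library. Its log2 fold change of 1.0 (SE 0.267, edgeR adjusted p = 0.0119) fell to 0.77 (adjusted p = 0.0678) without H196_Mo replicate 1, which had the lowest count. On log2(FPKM + 1) it was 0.50, under the fold limit. GADD45A had 57.98, 53.59 and 49.26 FPKM, against 47.98, 50.08 and 40.29 FPKM, which overlap in FPKM but not in CPM. Its log2 fold change of 0.30 (SE 0.0857, edgeR adjusted p = 0.0188) no longer passed with limma on FPKM (0.0873 and 0.0891), without H196_Co replicate 1 (0.0947) or without H196_Mo replicate 3 (0.139).

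The other 6 genes did not pass in H196 cells. CDKN1A, with 69.23, 64.17 and 63.69 FPKM in H196_Co against 59.59, 64.61 and 60.05 FPKM in H196_Mo, had a log2 fold change of 0.18 (95% interval 0.033 to 0.318, edgeR adjusted p = 0.0938). MDM2 was at -0.21 (edgeR adjusted p = 0.0713) and CDKN2A at -0.15 (edgeR adjusted p = 0.186). Limma on FPKM called both, MDM2 with adjusted p of 0.0431 and 0.0468 and CDKN2A with 0.0246 and 0.0247, and MDM2 also passed in edgeR without H196_Co replicate 2 (0.0416). The median of all genes was itself lower in FPKM. It was -0.063 on log2(FPKM + 1) and -0.077 on log2(FPKM + 0.1), against -0.0015 in edgeR. CDKN1B, CDKN2C and BTG2 had log2 fold changes of 0.05, -0.05 and -0.13, the last on only 34 to 47 counts per library.

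Whether the partners responded unlike each other was tested as an interaction, the change of H196 cells with MRC5 minus the change of MRC5 cells with H196. Of the 10 genes, 5 were DEGs of the interaction, beside 24.7% of all genes, and the same 5 passed the adjusted p, beside 51.2%. CDKN1A, CDKN1B, BTG2 and TP53INP1 changed upward by more in fibroblasts, and CDKN2C fell more in fibroblasts. TP53INP1 had the widest difference, -1.36 (SE 0.124, edgeR adjusted p = 7.05e-10), with opposite directions in the lines. The difference of CDKN2C, 0.68 (SE 0.118, edgeR adjusted p = 2.14e-05), was 0.57 without MRC5_Mo replicate 3 and 0.56 without MRC5_coH196 replicate 3, under the fold limit. No difference between the lines passed for CDKN1C (-0.39, 95% interval -1.03 to 0.249), CDKN2B (0.15, -0.166 to 0.462), CDKN2A (0.07, -0.135 to 0.275), MDM2 (0.10, -0.0825 to 0.286) or GADD45A (0.02, -0.168 to 0.202).

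Other p53 targets went both ways in MRC5_coH196, in numbers near those of all genes. Of 28 tested, 6 were upregulated and 4 downregulated DEGs, beside 17.2% and 14.7% of all genes, 16 passed upward and 8 downward, beside 37.2% and 37.1%, and the median log2 fold change was 0.25. GDF15, a stress cytokine, rose by 1.91 and DDB2, a DNA damage recognition factor, by 1.15, while TP53I3, a quinone oxidoreductase, was at -1.46. On FPKM scales 12 passed upward and 11 downward. A mixed list of 9 tested genes held the relatives GADD45B, BTG1, BTG3, TOB1 and TOB2, and GADD45GIP1, TP53INP2, CDKN2D and CDKN3. GADD45B at 1.76, BTG1 at 1.29, BTG3 at 0.62 and CDKN2D, the fourth INK4 gene, at 0.79 were upregulated DEGs, and CDKN3, a phosphatase that acts on CDKs, was a downregulated one at -0.65. The median of the 9 was 0.51, against -0.003 for all genes. CDKN2D went from 8.46 ± 0.907 to 12.6 ± 1.71 FPKM (SD, n = 3), the opposite direction to CDKN2A, CDKN2B and CDKN2C.

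Downstream, the 21 G1 cyclins, CDKs, RB and E2F genes had a median of 0.02, with 3 upregulated and 4 downregulated DEGs, 7 of 21 beside 31.9% of all genes. The E2F factors E2F8 (-1.61) and E2F2 (-1.25) fell, and CDK6, a target of the INK4 proteins, rose by 0.90. Genes known to regulate the inhibitors numbered 14, of which 6 were upregulated DEGs and 1 a downregulated DEG, beside 17.2% and 14.7% of all genes. CBX7, a Polycomb reader of the INK4 locus, rose by 1.60 and ETS1, a factor that acts on CDKN2A, by 1.53, while EZH2, the Polycomb methyltransferase, was at -1.11.

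Proliferation genes were lower in MRC5_coH196 almost throughout. Of 20 tested, 16 were downregulated DEGs, beside 14.7% of all genes, and none upregulated. With no fold limit, 19 passed downward, beside 37.1%. The median was -0.87, with MCM5 at -1.22, CCNB1 at -1.06 and RRM2 at -1.06. CDK1 alone passed upward, at 0.15, and did not on FPKM scales. Their summed level was 400 to 422 FPKM in MRC5_coH196 and 736 to 852 FPKM in MRC5_Mo. In bulk RNA, fewer cycling cells and less RNA per cell cannot be told apart.

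The same lists held few DEGs in the other comparisons. With H69, none of these lists held a DEG in fibroblasts by edgeR. Of the 20 proliferation genes, 19 passed downward by edgeR, beside 375 of all 12819 genes tested, with a median of -0.25. With limma on FPKM, 11 of them did. In H196_Co, the 20 proliferation genes had a median of -0.04 and none passed in edgeR, while 1 passed downward on FPKM scales. Of the 20, 2 had an unadjusted edgeR p under 0.05, with no share of all genes counted to set beside it. Of 25 other p53 targets tested, 1 passed upward and 3 downward, beside 1542 and 996 of all 12806 genes, and none was a DEG. CDKN2D passed upward at 0.46. Of these lists, the regulators alone held DEGs, 2 of 15 upregulated, beside 3.26% of all genes. They were MYC at 0.62 and ID1 at 0.58, of which 1 remained with DESeq2 size factors and none on FPKM scales.

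**Figure D3:**
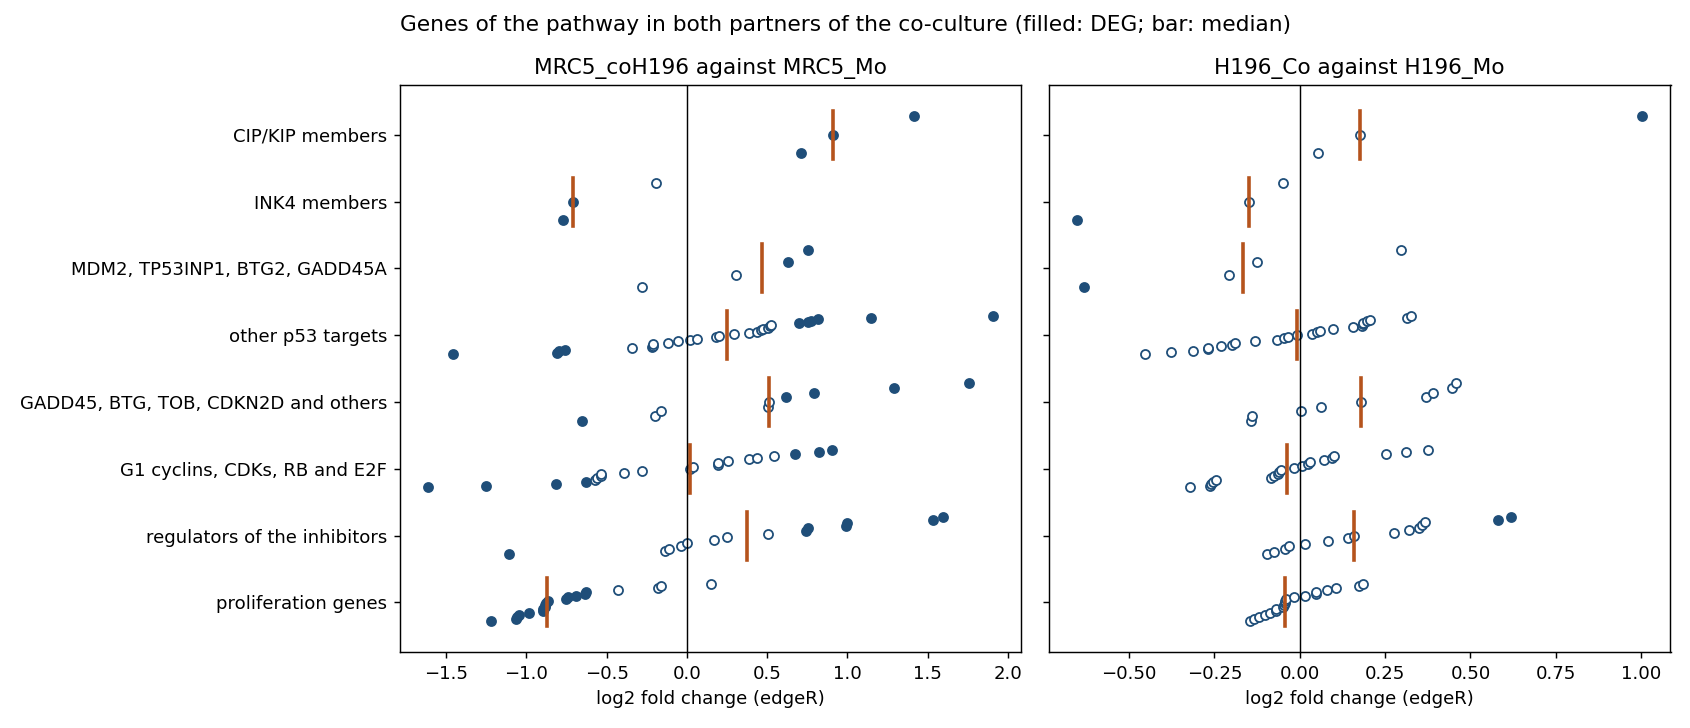
log2 fold change (edgeR, horizontal axis, a separate scale per panel) of each tested gene of 8 lists in MRC5_coH196 against MRC5_Mo and in H196_Co against H196_Mo; filled points are DEGs and vertical bars list medians. The proliferation genes lie to the left in the fibroblast panel, with a median of -0.87, and around 0 in the H196 panel, with a median of -0.04.

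Fibroblast markers moved with the same comparison. Their summed level was 7602 to 8384 FPKM in MRC5_Mo, 8513 to 8804 in MRC5_coH69 and 5462 to 5579 in MRC5_coH196. COL3A1 at -2.09 and COL1A1 at -1.57 were downregulated DEGs and PDGFRB an upregulated one. With no fold limit, 7 of 12 passed upward and 4 downward, beside 37.2% and 37.1% of all genes. Epithelial markers summed to 109 to 117 FPKM in MRC5_Mo and 116 to 122 FPKM in MRC5_coH196, and CLDN7 (1.62), KRT7 (1.43), KRT19 (0.99) and KRT8 (0.83) were upregulated DEGs of 6 tested. KRT19 was at 35.0 ± 3.03 FPKM in MRC5_coH196 and at 0.25 ± 0.0173 FPKM in H196_Mo. The part of these markers in the changes of the 10 genes was not tested.

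The genes whose log2 CPM followed the members most closely were sought among 9227 genes over the 9 MRC5 libraries and among 9840 over the 6 H196 libraries. CDKN1A was followed by BCOR (Pearson's r = 0.9993), CHAC1 (0.9992) and ZBTB4 (0.9986), and TP53INP1 by DCP2 (0.9951), GINM1 (0.9931) and the p53 target ZMAT3 (0.9929). CDKN1B was followed by RECK (0.9922), CDKN1C by RO60 (0.9920), CDKN2B by CELSR2 (0.9725), CDKN2C by PEMT (0.9914) and BTG2 by PLPPR3 (0.9913). In H196 cells, CDKN2B was followed by GDAP1 (0.9989), TP53INP1 by FAM120B (0.9983) and CDKN1C by PRKD2 (0.9950). These libraries fall into groups that differ in most genes or in few, and the correlations, which describe that pattern over so few points, carry no test.

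Counts and FPKM of CDKN2C did not scale alike in MRC5_coH196. A gene's count, its FPKM and the library total imply the gene length that the authors' tool used, which reflects the mix of transcripts it assigned. For CDKN2C this length was 1478, 1670 and 1629 bases in MRC5_Mo, 1475, 1607 and 1434 in MRC5_coH69, and 1294, 1240 and 1238 in MRC5_coH196. No MRC5_coH196 library overlapped MRC5_Mo, with a log2 ratio of -0.339. Of 7294 genes with at least 5 FPKM in every MRC5 library, 0.219% shifted by as much in that comparison, and the next member, CDKN2A, by a ratio of 0.017. GENCODE 29, which may differ from the authors' gene reference, lists CDKN2C transcripts of 2904, 2086 and 1220 bases. The implied lengths were not matched to single transcripts. The fall of CDKN2C was therefore larger in counts (-0.71) than on log2(FPKM + 1) (-0.50), and whether its transcripts changed was not tested on reads.

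**Figure D4:**
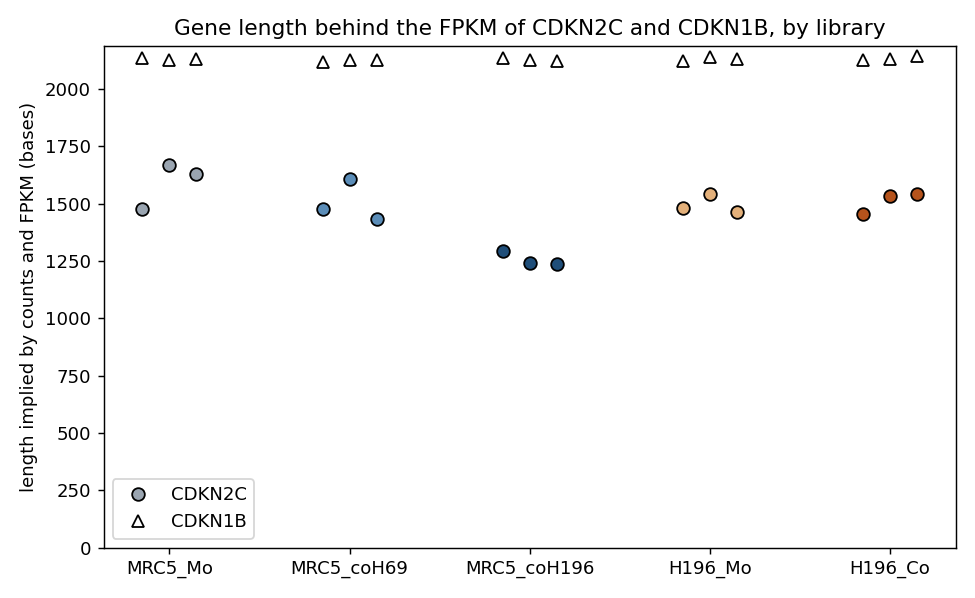
Gene length in bases (linear axis from 0) implied by the counts and FPKM of each library, for CDKN2C (circles) and CDKN1B (triangles). The 3 MRC5_coH196 libraries of CDKN2C lie at 1238 to 1294 bases, below the 1434 to 1670 bases of the other groups, while CDKN1B stays level.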

How the data were processed

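RNA of the 15 libraries was selected by oligo(dT) and run on a BGIseq-500. The authors filtered reads in SOAPnuke. They mapped them to GRCh38.p13 (HISAT) and to reference genes (Bowtie2). The submitters' notes also name HISAT2 2.1.0, Bowtie2 2.3.4.3 and RSEM 1.3.1. Expected counts, which the authors estimated per gene, were deposited without normalization, and 93.68% (MRC5) and 92.12% (H196) of values are whole numbers. FPKM was deposited too, scaled by the authors to gene length and library, with 2 decimals. Columns of TPM and normalized counts (18 for MRC5, 12 for H196), and the authors' fold changes, p-values and q-values, were not used.

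Counts were rounded and fitted with edgeR 4.0.16 in R 4.3.3 (filterByExpr, TMM, glmQLFit, glmQLFTest, two-sided, Benjamini-Hochberg over all genes tested): 9 MRC5 libraries (12819 genes), 6 H196 libraries (12806 genes), and all 15 (13585 genes listed in both tables) for differences between the lines. SEs were taken as the absolute log2 change over the root of the F statistic, and 95% intervals are normal intervals from them. Levels of different genes are compared only as FPKM. An exact permutation test of 3 against 3 cannot go below p = 0.1. Alternatives used DESeq2 1.42.0 and limma 3.58.1. Scripts were tested on simulated counts. Of the other lists, up to 3 DEGs with the largest change were named per comparison, and other genes of them were named after their values were seen. The members and lists were chosen with earlier results of these data known. MRC5_coH196 and MRC5_coH69 share the MRC5_Mo libraries as control. Results of some genes of the lists are not reported here.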

Additional observations from a re-analysis of the deposited data

Results flagged for a closer look

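The change with co-culture differed between the lines for 5 of the 10 genes by the interaction test of edgeR on all 15 libraries (change in H196 minus change in MRC5, adjusted over all genes, 24.7% of which were DEGs of the interaction). CDKN1A differed by -0.71 (SE 0.0802, adjusted p = 3.51e-08), with 0.91 in MRC5 and 0.18 in H196. CDKN1B differed by -0.63 (SE 0.0898, adjusted p = 1.43e-06), with 0.71 in MRC5 and 0.05 in H196. CDKN2C differed by 0.68 (SE 0.118, adjusted p = 2.14e-05), with -0.71 in MRC5 and -0.05 in H196. TP53INP1 differed by -1.36 (SE 0.124, adjusted p = 7.05e-10), with 0.76 in MRC5 and -0.63 in H196, each higher or lower in 3 of 3 libraries. BTG2 differed by -0.73 (SE 0.195, adjusted p = 0.00259), with 0.63 in MRC5 and -0.13 in H196, where it had 34 to 47 counts per library.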

How the results depend on the processing

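Over the alternatives, 1043 values of single genes kept their direction and their side of the adjusted p of 0.05, 7 moved past it, 12 moved back over it and 18 changed sign, none of the last past the threshold in either setting. With an absolute log2 fold change above 1, the DEGs among the 10 genes numbered 1 in MRC5_coH196 against MRC5_Mo, 2 against MRC5_coH69, 1 in H196_Co and 1 in the interaction. No share of all genes was counted at that limit. With no fold limit, they numbered 1 in MRC5_coH69 against MRC5_Mo, beside 6.7% of all genes, and 10 in MRC5_coH196 against MRC5_coH69, beside 72.3%. With limma on log2(FPKM + 1), 3 were DEGs in MRC5_coH196 against MRC5_Mo, beside 915 higher and 2082 lower of 12819 genes. On log2(FPKM + 0.1), 4 were, beside 1437 and 2869. Leaving out each library in turn gave 6 to 7 DEGs in MRC5_coH196 against MRC5_Mo, 0 to 0 in MRC5_coH69 against MRC5_Mo, 4 to 5 in MRC5_coH196 against MRC5_coH69, 2 to 3 in H196_Co, 8 to 9 between the mono-cultures and 4 to 5 in the interaction. A group left with 2 libraries shared the spread of the others. Signs changed for small differences. In MRC5_coH69 against MRC5_Mo, leaving out a library gave CDKN1C -0.0263 to 0.318, MDM2 -0.0133 to 0.0759 and GADD45A -0.0241 to 0.0403. In H196_Co, limma gave CDKN1B -0.0245 and -0.0253. In the interaction, leaving out a library gave CDKN2A -0.0039 to 0.1224, CDKN2B -0.0324 to 0.2842 and GADD45A -0.0706 to 0.093, and GADD45A was -0.0286 with DESeq2 or its size factors and -0.0144 with at least 10 counts in every library.

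The replicate numbers did not pair the libraries: same-numbered libraries correlated at -0.151 to 0.081 in their deviations from the group means. With the replicate number as a block, the DEGs numbered 7 in MRC5_coH196 against MRC5_Mo, 0 in MRC5_coH69 against MRC5_Mo, 4 in MRC5_coH196 against MRC5_coH69, 3 in H196_Co, 8 between the mono-cultures and 5 in the interaction, and no call of a gene changed. Depth limits CDKN1C and BTG2 in H196 cells, CDKN1C in MRC5_Mo and MRC5_coH69 and CDKN2B in MRC5_coH196, where counts per library are lowest.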
